A study of Homo sapiens with 12 samples.

Results

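The Krüppel-like factors (KLF) are transcription factors that bind GC-rich and CACCC elements of promoters through zinc fingers at the end of the protein, and the mRNA of 10 of them was followed in leukemia cells given OGP46. The 10 genes were KLF2, KLF1, KLF3, KLF4, KLF6, KLF7, KLF10, KLF11, KLF13 and KLF16, out of 20003 genes with a value in every sample. They were chosen by gene symbol, with their FPKM in the same 12 samples already known, and KLF2 came to notice by its mean change over both cell lines. Their changes are therefore given as a description, and adjusted p-values are printed only to place a gene among all genes tested. Values came from 4 groups of 3 samples each. NB4, an acute promyelocytic leukemia cell line with the PML-RARα fusion, and Kasumi-1, a myeloid leukemia line that carries AML1-ETO, were each incubated for 48 h with DMSO, the control, or with 1 μM OGP46, a diterpenoid made from Oridonin. The labels and the methods give 48 h, and a figure legend of the study gives a longer time, so the incubation time is uncertain. One cell line of each kind was used, and nothing in the labels said whether same-group samples were separate cultures, so p-values measure only the spread between these samples.

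KLF proteins share their DNA-binding end with the SP factors and differ in the rest of the protein, which recruits activators or repressors. KLF2 holds T cells at rest and restrains the inflammatory activation of monocytes and endothelium, and it is known as a gene switched on by the MEK5-ERK5 kinases through MEF2 factors. KLF4 is best known in blood for its part in monocyte formation, and KLF6 is an early response gene of macrophages. KLF1 drives red cell formation, KLF3 is a repressor that works with CtBP, and KLF10 and KLF11 are early genes of TGF-beta that repress through SIN3A.

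The stretch just upstream of the gene start is shown for KLF2 and KLF6, the 2 members with the largest rise in NB4 cells. In RefSeq on GRCh38.p14, KLF2 lies on chromosome 19 from base 16324826 to 16328685, and KLF6 on chromosome 10 from 3775996 to 3785209. The 250 bases printed are the promoter side only, chr19:16324576-16324825 on the plus strand for KLF2 and chr10:3785210-3785459 on the minus strand for KLF6, each 5′ to 3′. Capitals mark GC boxes (GGGCGG on either strand), a core bound by SP and KLF factors, and in KLF2 also the MEF2 consensus.
KLF2: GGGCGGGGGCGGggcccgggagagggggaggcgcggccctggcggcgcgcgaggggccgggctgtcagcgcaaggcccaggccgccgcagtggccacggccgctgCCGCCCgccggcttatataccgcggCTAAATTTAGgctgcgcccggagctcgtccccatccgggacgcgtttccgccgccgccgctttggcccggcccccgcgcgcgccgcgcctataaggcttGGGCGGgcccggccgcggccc
KLF6: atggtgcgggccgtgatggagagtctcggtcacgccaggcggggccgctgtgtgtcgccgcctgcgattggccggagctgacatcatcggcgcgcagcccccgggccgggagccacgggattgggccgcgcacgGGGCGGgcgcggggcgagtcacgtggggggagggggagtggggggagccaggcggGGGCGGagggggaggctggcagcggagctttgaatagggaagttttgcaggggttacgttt

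The KLF2 window held 4 GC boxes. This number was reached or passed by 7.63% of the 35116 windows of that length read upstream of gene start sites. The KLF6 window held 2, with 24.3% of windows at 2 or more. GC content was 80% for KLF2 and 72.4% for KLF6, against a median of 58% over all windows. The MEF2 consensus occurred once in the KLF2 window and in 0.515% of all windows. Its form was widened after the KLF2 sequence had been seen, so that share does not measure how rare the KLF2 match is. Neither window held a CACCC box (CACCC), which 54.7% of all windows had on 1 strand or the other. The AP-1 form TGANTCA (6.57% of all windows), the NRF2 core TGACNNNGC (10.9%) and the CRE TGACGTCA (1.65%) were also not found in either. Of the 10 members, 8 had a window and 12 windows were read for them, since KLF7 had 4 start sites and KLF11 had 2. KLF16 had the most GC boxes with 7, a number reached by 1.12% of windows. KLF4 had 4 and KLF13 had 3 together with 1 CACCC box. In KLF11, 1 window held 6 GC boxes and a CRE, and KLF1 had no GC box and 1 NRF2 core. KLF3 and KLF10 were not among the windows read. A match to these letters is a description of the sequence and not evidence that a factor was bound.

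The markers of the Kasumi-1 label set the 2 lines apart, and no fusion mark of NB4 was read. RUNX1T1, the ETO partner of the Kasumi-1 fusion, and the other Kasumi-1 markers POU4F1 and TRH together summed to 50.1 to 54.1 FPKM in Kasumi-1 controls and to 0.408 to 1.07 FPKM in NB4 controls. With OGP46 the sums were 35.1 to 38.9 FPKM in Kasumi-1 and 0.398 to 0.819 in NB4. TRH, a hormone gene, fell in Kasumi-1 from 36.9 ± 1.76 to 20.7 ± 1.88 FPKM (log2 fold change -0.84, limma adjusted p = 0.0103), and RUNX1T1 and POU4F1 were not called. The 5 granule protein genes of promyelocytes (MPO, ELANE, PRTN3, AZU1 and CTSG) summed to 2605 to 3945 FPKM in NB4 controls and 1586 to 2812 with OGP46, and in Kasumi-1 to 9612 to 11917 and 7759 to 8972. All 5 were called lower in NB4 controls than in Kasumi-1 controls, so they do not mark NB4 here. ELANE, which encodes neutrophil elastase, was low in NB4 and uneven between its controls, at 0.504, 3.3 and 14.5 FPKM. In Kasumi-1 controls ELANE stood at 1505 ± 190 FPKM. Signal from Kasumi-1 was taken as the median ratio of RUNX1T1, POU4F1 and TRH to their Kasumi-1 control means. It was put at 0%, 0.37% and 0.895% in NB4 controls 1, 2 and 3. POU4F1 alone gave a higher ratio, with 0.408, 0.78 and 0.788 FPKM in these samples against 7.27 ± 0.316 in Kasumi-1 controls. What part of the NB4 ELANE values such signal makes up was not tested. Red cell markers were listed at 0 for 8 of 8 genes in both NB4 controls and Kasumi-1 with OGP46, and their sum never passed 0.184 FPKM elsewhere. The 4 endothelial markers summed to at most 0.0585 FPKM. T cell markers came to 13.5 to 20.5 FPKM in NB4 controls and 22.7 to 35 with OGP46, nearly all of it CD3D, and to at most 0.7 in Kasumi-1. The 4 B cell markers summed to between 0.912 and 3.02 FPKM in the 12 samples. What part these genes have in the KLF values was not tested. In bulk RNA, more cells with a transcript and more transcript per cell cannot be told apart.

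FPKM are read fragments scaled for the length of the exons and for library size, so levels can be set side by side between genes. In NB4 controls, KLF13 was the most abundant member at 19.4 ± 0.173 FPKM (SD, n = 3), followed by KLF16 at 13.8 ± 0.713. KLF10 came next at 6.8 ± 0.766 FPKM, and KLF6 (4.32 ± 1.36), KLF3 (3.32 ± 0.292) and KLF4 (3.13 ± 0.949) followed with overlapping samples. KLF11, KLF7 and KLF1 lay lower still, at 0.559 ± 0.161, 0.478 ± 0.0658 and 0.341 ± 0.213 FPKM, and overlapped each other. KLF2 was the lowest member at 0.137 ± 0.0117 FPKM, below every sample of the rest. In Kasumi-1 controls, KLF16 led with 24.2 ± 2.05 FPKM. Behind it came KLF6 (7.63 ± 0.813), KLF3 (6.52 ± 0.371) and KLF11 (6.08 ± 1.05), the last overlapping both others, and KLF13 stood at 3.8 ± 0.138 FPKM. KLF10 had 1.67 ± 0.27 FPKM, KLF1 1.02 ± 0.111, KLF2 0.693 ± 0.136 and KLF7 0.286 ± 0.0188. KLF4 was at the bottom of the order in Kasumi-1, listed at 0 in control samples 1 and 3 and at 0.0327 FPKM in control 2.

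**Figure D1:**
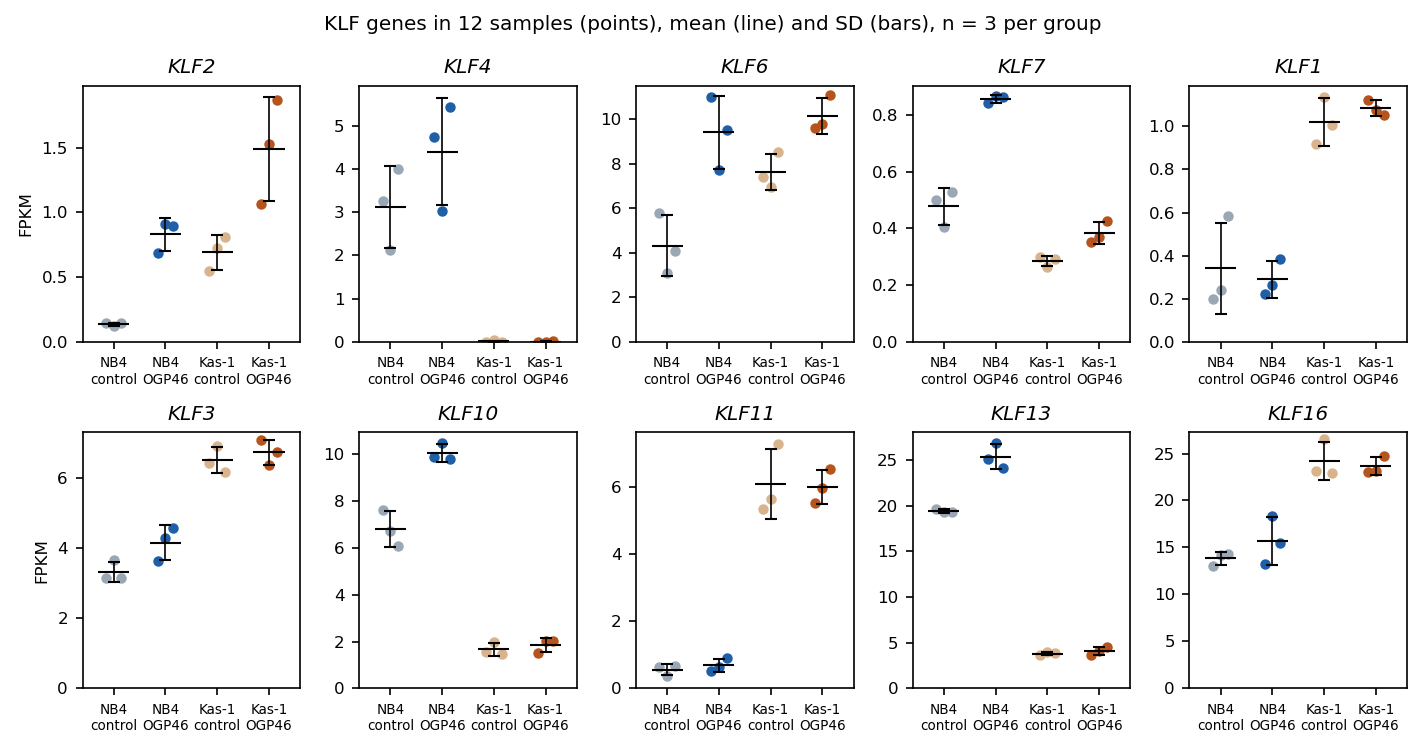
FPKM of the 10 KLF genes (y axis, linear from 0, 1 panel per gene) in the 4 groups (x axis); points are samples, lines are means and bars are SD of 3 samples. KLF2 rises from 0.123 to 0.145 FPKM in NB4 controls to 0.684 to 0.913 with OGP46, while KLF4 is near 0 in every Kasumi-1 sample.

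The untreated lines differed in most members. KLF13, KLF10 and KLF4 were higher in NB4 and 6 members, namely KLF11, KLF2, KLF1, KLF3, KLF6 and KLF16, were higher in Kasumi-1. That made 9 of 10 members called between the control groups, against a background of 52.4% of all genes tested (limma, Benjamini-Hochberg adjusted p below 0.05, with a minimum log2 fold change of 0.58 in either direction). KLF13, an activator of the chemokine gene CCL5 in T cells, differed by a log2 fold change of 2.32 ± 0.07 (SE) toward NB4 (limma adjusted p = 5.43e-08), with samples at 19.6, 19.3 and 19.3 FPKM against 3.66, 3.93 and 3.83. KLF11 was the reverse, at 0.641, 0.374 and 0.662 FPKM in NB4 against 5.33, 5.63 and 7.28 in Kasumi-1, a log2 fold change of -3.25 ± 0.21 (limma adjusted p = 1.1e-06). The related KLF10 was higher in NB4 by 1.97 ± 0.14 (limma adjusted p = 2.06e-06), so this pair of TGF-beta early genes was skewed in opposite directions. KLF4 had 3.25, 2.12 and 4.01 FPKM in NB4 controls, and no fold is given because the Kasumi-1 controls were at or near 0.

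Smaller differences went the other way. KLF2 was lower in NB4 controls than in Kasumi-1 controls by 1.73 ± 0.19 on the log2 scale (limma adjusted p = 3.43e-05), and the groups did not overlap. KLF1 was at -1.44 ± 0.30 (limma adjusted p = 0.00182), KLF3 at -0.95 ± 0.10 (2.85e-05), KLF6 at -0.85 ± 0.20 (0.00397) and KLF16 at -0.80 ± 0.08 (2.59e-05). The KLF1 difference is between low values, and globin and other red cell genes were near 0 in both lines. KLF7, a relative of KLF6, was higher in NB4 with a log2 fold change just under the minimum of 0.58 (limma adjusted p = 0.0124), and over it, at 0.72, relative to the sample median.

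Of the 8 other KLF genes, 3 were tested between the control groups. KLF5 and KLF12 were called, both higher in Kasumi-1, beside 52.4% of all genes tested. KLF12, a repressor that recruits CtBP, had 1.89 to 2.3 FPKM in Kasumi-1 controls and at most 0.032 in NB4 controls. KLF5, a factor of epithelial growth, had 0.869 to 1.1 FPKM in Kasumi-1 controls and 0.128 to 0.248 in NB4. KLF9 was near 1 FPKM in both, at 1.03 ± 0.108 in NB4 and 1.05 ± 0.402 in Kasumi-1. KLF15 stayed at or below 0.21 FPKM in all 12 samples. KLF8 was listed at 0 in NB4 and at or below 0.0649 FPKM in Kasumi-1, KLF17 and KLF18 did not pass 0.034 FPKM, and KLF14 was listed at 0 throughout. The SP factors SP1 and SP3 were more alike between the lines, SP1 at 15 ± 0.854 FPKM in NB4 and 16.5 ± 0.33 in Kasumi-1 controls and SP3 at 17.5 ± 1.58 and 14.7 ± 0.442.

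Of the other SP genes, SP2 was at 1.53 ± 0.177 FPKM in NB4 controls and 2.06 ± 0.156 in Kasumi-1 controls. SP4, at 1.5 ± 0.283 against 0.955 ± 0.042 FPKM, and SP8, at 0.161 to 0.3 against at most 0.0189, were called higher in NB4. SP5, SP6, SP7 and SP9 had at most 0.0657 FPKM in the control samples.

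**Figure D2:**
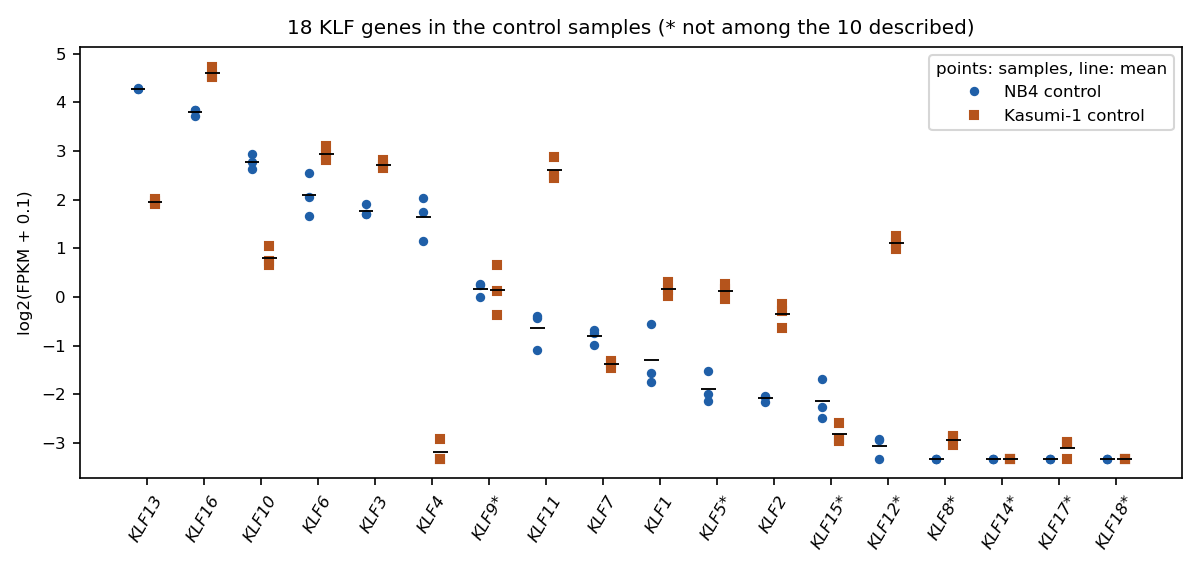
log2(FPKM + 0.1) of all 18 KLF genes (x axis, in order of the NB4 control mean, asterisks for the 8 outside the 10 described) in the control samples of NB4 (circles) and Kasumi-1 (squares); points are samples and lines are means of 3. KLF13, KLF10 and KLF4 sit higher in NB4, and KLF11, KLF12 and KLF2 sit higher in Kasumi-1.

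In NB4 cells incubated with OGP46, KLF2 and KLF6 rose. A change above 0 was seen in 9 of 10 members, but the median over all genes tested was itself 0.18. Relative to the sample median, 8 of 10 were above 0. KLF2 had the largest change, with 0.145, 0.123 and 0.142 FPKM in the controls and 0.684, 0.913 and 0.898 with OGP46. All 3 treated samples lay far above all 3 controls. The log2 fold change was 1.97 ± 0.20, which is 3.91-fold on the scale of log2(FPKM + 0.1), and the limma adjusted p was 0.0204. Because 0.1 was added to values of about that size, this fold understates the change in FPKM itself. KLF2 remained a low transcript even so, at 0.832 ± 0.128 FPKM with OGP46.

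KLF6 went from 5.78, 3.09 and 4.09 FPKM to 11, 7.73 and 9.52, a log2 fold change of 1.14 ± 0.22 (2.2-fold, limma adjusted p = 0.0434). The groups did not overlap, and the control spread was wide. Within same-numbered samples, its difference was 0.92, 1.3 and 1.2 on the log2 scale, more even than the samples themselves. KLF7 had 0.501, 0.404 and 0.529 FPKM in controls and 0.841, 0.866 and 0.865 with OGP46. Its log2 fold change of 0.73 ± 0.17 did not pass (limma adjusted p = 0.0594) and did pass with the replicate number as a block (limma adjusted p = 0.0119).

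Among the repressors induced by TGF-beta, KLF10 had 7.61, 6.71 and 6.09 FPKM in controls and 9.89, 10.5 and 9.79 with OGP46. The treated samples were all above the controls, and the log2 fold change of 0.56 ± 0.10 was under the minimum of 0.58 (limma adjusted p = 0.0385). KLF11 had 0.512, 0.638 and 0.895 FPKM with OGP46 and overlapped with its controls, at 0.25 ± 0.26 (limma adjusted p = 0.531). KLF13, already the most abundant, had 25.1, 26.8 and 24.1 FPKM with OGP46, above all controls, with a log2 fold change of 0.38 ± 0.08 (limma adjusted p = 0.045). This too was under the minimum change.

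KLF4 overlapped between the groups, with 3.25, 2.12 and 4.01 FPKM in controls and 4.76, 3.04 and 5.43 with OGP46. Each treated sample was above the control of the same number, by 0.53, 0.50 and 0.43 on the log2 scale, and the log2 fold change was 0.49 ± 0.27 (limma adjusted p = 0.252). KLF3 had 3.62, 4.29 and 4.58 FPKM with OGP46, of which 1 lay within the range of the controls, and stood at 0.32 ± 0.12 (limma adjusted p = 0.143) and KLF16, at 13.2, 18.4 and 15.5 FPKM with OGP46, at 0.17 ± 0.12 (limma adjusted p = 0.367). KLF16, a close relative of KLF13, also overlapped with its controls. KLF1 was the only member with a change below 0, at -0.10 ± 0.34 (limma adjusted p = 0.86). Its control values were 0.197, 0.241 and 0.585 FPKM and its treated values 0.221, 0.264 and 0.384, and without control 3 its change was 0.27.

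**Figure D3:**
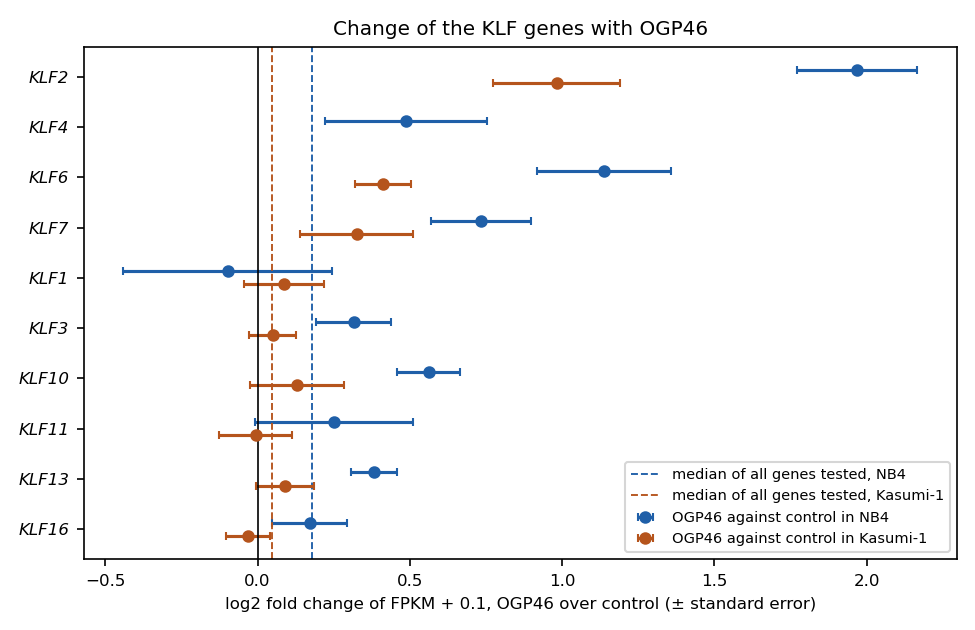
log2 fold change of FPKM + 0.1 (x axis, OGP46 over control, bars are the standard error of the limma fit) of the KLF genes (y axis) in NB4 (blue) and Kasumi-1 (orange), with dashed lines at the median of all genes tested. KLF2, KLF6 and KLF7 lie farthest to the right in both lines; KLF4 was not tested in Kasumi-1.

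By the limits above, 2 of 10 members were called higher in NB4, KLF2 and KLF6, where 1.45% of all 11750 genes tested were called higher. With the replicate block, 3 of 10 were called (KLF7 in addition), where 5.06% of all genes were. In 5 members (KLF2, KLF6, KLF7, KLF10 and KLF13) every OGP46 sample was above every control, a pattern that 32.7% of all genes tested showed. The members' median log2 fold change was 0.44 and that of all genes 0.18. Nothing is read from these shares, since the members were chosen with this contrast known. The FPKM of all genes summed to 248207 to 256268 in NB4 controls and 263341 to 291523 with OGP46. FPKM are already scaled for library size, so a higher sum does not show that all genes rose. Its cause was not tested. Relative to the sample median, the change of KLF2 was 1.75 (limma adjusted p = 0.0895) and that of KLF6 was 0.92 (limma adjusted p = 0.168), and no member was called; with the block as well, both passed (limma adjusted p = 0.00356 and 0.00182). Leaving out NB4 OGP46 replicate 2 kept both calls, and leaving out any other NB4 sample (NB4 control replicate 1, 2 or 3, NB4 OGP46 replicate 1 or 3) ended both, with limma adjusted p for KLF2 between 0.0236 and 0.134 over the 6 fits and for KLF6 between 0.0307 and 0.172.

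In Kasumi-1 cells, KLF2, KLF6 and KLF7 again had the largest changes, and no member was called without the block. KLF2 had 0.545, 0.721 and 0.812 FPKM in controls and 1.07, 1.53 and 1.86 with OGP46. Its treated samples were all above the controls. The log2 fold change was 0.98 ± 0.21, or 1.98-fold on the same scale (limma adjusted p = 0.0898). Between same-numbered samples the difference was 0.85, 0.99 and 1.11, and with the replicate block KLF2 was called (limma adjusted p = 0.00673).

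KLF6 had 7.42, 6.95 and 8.53 FPKM in Kasumi-1 controls and 9.61, 9.8 and 11.1 with OGP46, again without overlap. The log2 fold change was 0.41 ± 0.09 (limma adjusted p = 0.0995). KLF7 had 0.301, 0.265 and 0.291 FPKM against 0.353, 0.37 and 0.427, at 0.33 ± 0.18 (limma adjusted p = 0.418). The other 6 members tested lay between -0.03, for KLF16, and 0.13, for KLF10, with limma adjusted p between 0.672 and 0.986. With OGP46, KLF16 stood at 23.6 ± 0.951 FPKM, KLF3 at 6.75 ± 0.358, KLF11 at 6.01 ± 0.504, KLF13 at 4.07 ± 0.408, KLF10 at 1.84 ± 0.299 and KLF1 at 1.08 ± 0.0365. Each of these 6 overlapped with its controls. KLF4 fell below the minimum mean of 0.1 FPKM and was not tested; with OGP46 it was listed at 0 in samples 1 and 2 and at 0.0153 FPKM in sample 3.

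Of 9 members tested, limma thus called 0 higher, and 2 (KLF2 and KLF6) had an unadjusted p under 0.05. Among all 11835 genes, 0.0169% were called higher, and 1852 had an unadjusted p under 0.05. The replicate block called 1 member, KLF2, against 0.27% of all genes. Complete separation upward was seen in 3 members and in 17.4% of all genes. The members' median log2 fold change was 0.09, against 0.05 for all genes. With 3 samples a group, an exact permutation test of a single gene cannot give a two-sided p below 0.1.

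**Figure D4:**
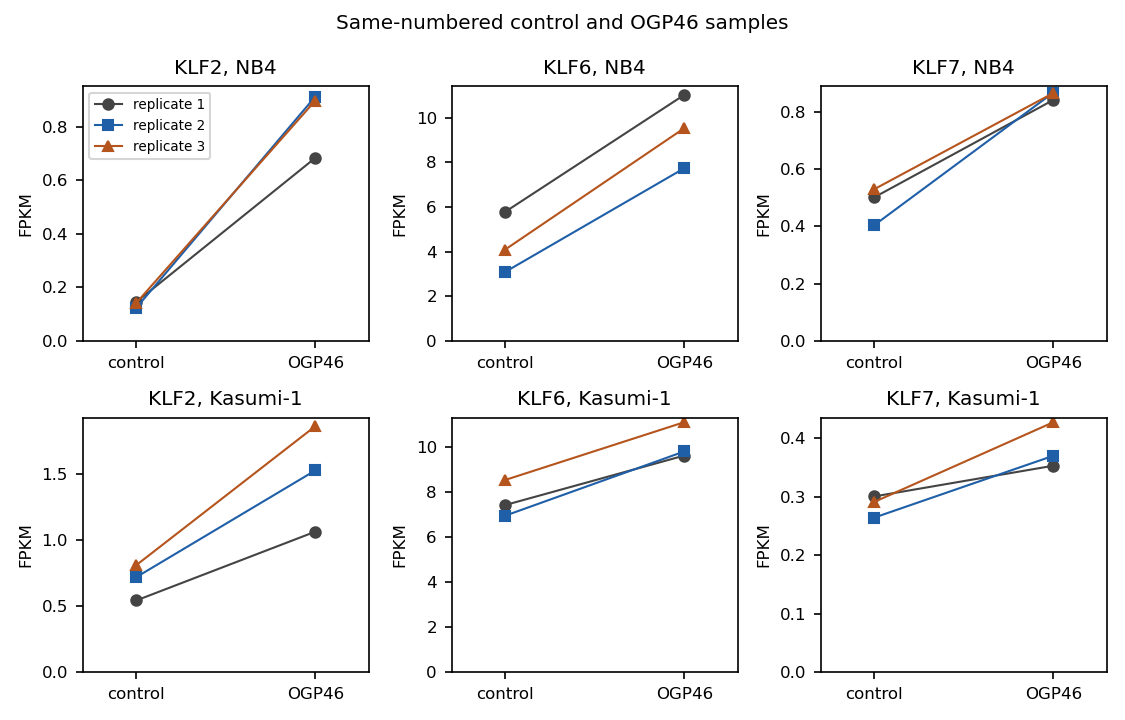
FPKM (y axis, linear from 0) of KLF2, KLF6 and KLF7 in control and OGP46 samples (x axis) of NB4 (top) and Kasumi-1 (bottom), with lines joining samples of the same number. Every line goes up, and the KLF6 lines of NB4 run nearly parallel from 5.78, 3.09 and 4.09 FPKM to 11, 7.73 and 9.52.

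Whether the lines differed in their response was examined by an interaction term of line and OGP46 over the 12 samples. The difference was 0.99 ± 0.29 for KLF2 (limma adjusted p = 0.245) and 0.73 ± 0.27 for KLF6 (limma adjusted p = 0.368), both larger in NB4. Of the 10 members limma called 0, with 4 at an unadjusted p under 0.05, and of all 12309 genes 0%, with 1348 under that p. With the replicate block, KLF2 (limma adjusted p = 0.0415) and KLF6 (limma adjusted p = 0.0219) were called, while 1.93% of all genes were. The other 8 members lay between -0.18, for KLF1, and 0.55, for KLF4, and were not called with or without the block. For KLF2 this difference rested on the pseudocount, since the NB4 controls are so low: it was 0.14 with 1 FPKM added and 1.44 with 0.01 added. The controls of NB4 enter this comparison, the change in NB4 and the comparison of the control groups alike, so these are not independent.

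KLF2 levels in the 4 groups can be set in order. NB4 controls were lowest at 0.137 ± 0.0117 FPKM, Kasumi-1 controls at 0.693 ± 0.136 and treated NB4 at 0.832 ± 0.128 overlapped, and treated Kasumi-1 was highest at 1.49 ± 0.401. Averaged over both lines, the log2 fold change was 1.48 for KLF2, place 6 of 12309 genes from the top, the value by which it was noticed. It was 0.77 for KLF6 (place 66), 0.53 for KLF7 (place 258) and 0.35 for KLF10 (place 945). KLF1 was at -0.01 and the remaining 5 members lay between 0.07 and 0.24.

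The 18 KLF genes summed to 51.8 to 55.2 FPKM in NB4 controls and 71.2 to 74.8 with OGP46, and to 53.6 to 57.8 and 57.6 to 64 in Kasumi-1. As a share of the FPKM of all genes, this was 0.0202% to 0.0217% in NB4 controls and 0.0252% to 0.0271% with OGP46. In Kasumi-1 the share was 0.0186% to 0.0204% in controls and 0.0194% to 0.0229% with OGP46, where the ranges overlap. KLF13 and KLF16 made up 59% to 64.7% of the family in NB4 controls and 46.9% to 52.7% in Kasumi-1 controls. The sum therefore says little of KLF2, which is a small part of it.

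Genes around the KLF factors were read from lists by role. Among the TGF-beta inputs, TGFB1, the ligand, and TGFBR2, a receptor chain, were called higher in NB4 with OGP46, 2 of 7 genes, beside the 1.45% of all genes called higher. TGFB1 had 19.2, 18.9 and 17.3 FPKM in controls and 27.8, 30.2 and 26.7 with OGP46, a log2 fold change of 0.61 (limma adjusted p = 0.0281). TGFBR2 had 5.3, 4.13 and 4.38 against 7.59, 6.6 and 7.12 FPKM, at 0.62 (limma adjusted p = 0.0431). The other receptor chain, TGFBR1, passed only in the fit with the block (0.61, limma adjusted p = 0.00169). Relative to the sample median, TGFB1 was at 0.39, TGFBR2 at 0.40 and TGFBR1 at 0.39, under the minimum change, and no gene of the list was called with or without the block. The SMAD genes were not called. In Kasumi-1, 0 of 7 were called, with 2 at an unadjusted p under 0.05. Of all 11835 genes tested there, 1852 were under that p. The list's median was 0.54 in NB4, or 0.32 relative to the sample median, and 0.07 in Kasumi-1. In the interaction with the block, TGFB1 (0.69) and TGFBR2 (0.72) were called larger in NB4, as was CDKN1A (1.29).

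The list of KLF2 target genes had 1 of 4 tested genes called in NB4, where 1.45% of all genes were called higher. This was CDKN1A, the cell cycle inhibitor p21, with 1.77, 1.69 and 1.15 FPKM in controls and 6.07, 4.34 and 3.02 with OGP46 (log2 fold change 1.45, limma adjusted p = 0.0364). Relative to the sample median its change was 1.23 and was not called (limma adjusted p = 0.166), and it passed when the block was added (limma adjusted p = 0.00356). CDKN1A answers to many factors, p53 above all. ITGB7, a homing integrin of T cells that KLF2 regulates, had 3.31, 3.9 and 2.58 against 6.59, 7.22 and 4.19 FPKM and passed with the block (0.84, limma adjusted p = 0.000375), and with median centring added (0.62, limma adjusted p = 0.0139). S1PR1, the lymphocyte exit receptor and a classic KLF2 target, was listed at 0 in all 12 samples. THBD (thrombomodulin) overlapped between groups, at 3.68 to 5.47 and 3.52 to 5.64 FPKM. In Kasumi-1, 0 of 2 tested targets were called by limma and 0 had an unadjusted p under 0.05. Of all 11835 genes tested there, 1852 did. ITGB7 and THBD were near 0 there (at most 0.0723 and 0.146 FPKM).

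No gene of the MEK5-ERK5-MEF2 path, which leads to KLF2, was called with OGP46. In NB4, limma called 0 of 6, with 2 at an unadjusted p under 0.05, and in Kasumi-1 0 of 7 and 0. Under that p stood 3422 of all 11750 genes tested in NB4 and 1852 of 11835 in Kasumi-1. Of the MEF2 genes, MEF2C had 10.6 to 14.1 FPKM in Kasumi-1 controls and at most 0.177 in NB4 controls, and MEF2D had 8.8 to 9.83 in NB4 and 2.42 to 2.61 in Kasumi-1. MEF2A was present in both, at 5.12 ± 0.501 and 3.85 ± 0.256 FPKM, and was not called. MAPK7, which encodes ERK5, was higher in NB4 controls (log2 fold change 1.34) and the upstream kinase MAP3K3 was lower (-1.06).

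The remaining lists had no gene called with OGP46 in either line. In NB4, limma called 0 of 10 co-regulators with 5 at an unadjusted p under 0.05, 0 of 5 SP genes with 2, 0 of 4 ubiquitin ligases of KLF proteins with 1, 0 of 2 tested KLF1 targets with 1, and 0 of 3 other KLF genes with 0. In Kasumi-1 the numbers were 0 of 10 with 2, 0 of 4 with 1, 0 of 4 with 1, 0 of 2 with 0 and 0 of 3 with 0. Over all genes tested, 3422 of 11750 had an unadjusted p under 0.05 in NB4 and 1852 of 11835 in Kasumi-1. Their NB4 medians ran from 0.03 for the KLF1 targets to 0.26 for the SP genes, beside 0.18 for all genes. Between the control groups, the co-activator CREBBP (log2 fold change 1.03) and the co-repressor CTBP1 (0.73) were higher in NB4. The ligases WWP1 (-0.67) and FBXW7 (-1.07) and BCL11A (-1.33), a KLF1 target that silences fetal globin, were lower there. Of the TGF-beta list, TGFBR1 (1.22) and SMAD3 (0.95) were higher in NB4 controls, and TGFB1 (-0.90), TGFBR2 (-1.83) and SMAD7 (-1.37) were lower. Of the KLF2 targets, ITGB7 (4.68) and THBD (4.93) were higher and NOS3 (-1.58) and CDKN1A (-0.74) were lower, with folds against lines near 0 depending on the pseudocount.

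**Figure D5:**
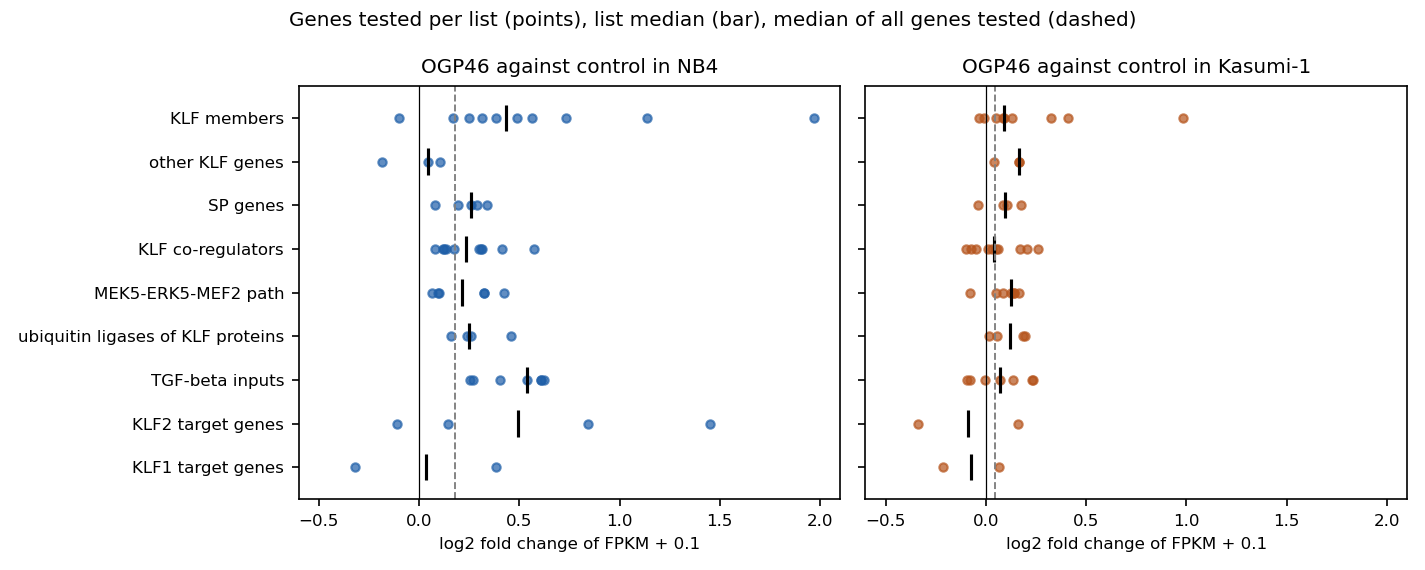
log2 fold change of FPKM + 0.1 with OGP46 (x axis) of every tested gene (points) in 9 lists (y axis), in NB4 (left) and Kasumi-1 (right); bars are list medians and dashed lines the median of all genes. KLF2 and KLF6 are the outermost points of the top row in NB4, and the TGF-beta list has a median of 0.54 in NB4 and 0.07 in Kasumi-1.

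The genes most like KLF2 over the 12 samples, after the mean of each line was taken away, were KLHL42, TMEM209, SUPT6H, PCGF3 and ATN1, with Pearson r from 0.969 to 0.976 among 8795 genes. TMEM209, for example, had 8.12 ± 0.465 FPKM in NB4 controls and 13.4 ± 0.74 with OGP46, and 9.77 ± 0.503 and 12.1 ± 0.552 in Kasumi-1. PCGF3, a Polycomb subunit, had 8.46 ± 0.302 and 12.5 ± 0.213, then 9.74 ± 0.243 and 12.4 ± 0.914. Only genes with a mean of 1 FPKM or more in each line were ranked, so that of the family KLF13 (r = 0.93, place 72), KLF6 (0.869, place 448), KLF10 (0.839, place 768), KLF3 (0.708, place 2493) and KLF16 (0.465, place 5042) had a place. Of the members below that minimum, KLF7 had r = 0.954, above that of KLF13, KLF4 had 0.454, KLF11 had 0.44 and KLF1 had -0.014. These samples share their treatment groups, so any gene that moved with OGP46 in both lines stands high in this order.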

How the data were processed

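The authors deposited 1 FPKM value per gene symbol and sample, from stranded poly(A) libraries; per the labels' processing notes, Trimmomatic, HISAT2, Cufflinks, HTSeq and hg38 were named, without role or version. Depth is unknown: 632 values lay above 0 and below 1e-04, so whole reads could not be recovered, and no counting interval is given. In each sample 27 symbols had become dates and were left out. KLF genes with similar exons may share reads. No 2 samples were identical.

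On log2(FPKM + 0.1), genes whose mean reached 0.1 FPKM were compared by limma (version 3.58.1, R version 4.3.3) (empirical Bayes with trend, two-sided, Benjamini-Hochberg over all genes tested). A gene was called at an adjusted p below 0.05 and a minimum log2 fold change of 0.58, as in the study's methods, and for the interaction by adjusted p alone. The test was tried on simulated data with unpaired noise. Changes were put only into genes at higher levels than KLF2, KLF7 and KLF1, KLF11 in NB4, and KLF4 and KLF10 in Kasumi-1. The trial therefore does not cover genes as low as these. The NB4, Kasumi-1 and control comparisons used 6 samples each. Members and lists were chosen with earlier results of these data known. Named were all 10 members, all KLF and SP genes, list genes called in a comparison with or without the block, and the 5 genes most like KLF2 whose mean reached 1 FPKM in each line. S1PR1 and THBD in the treated cells were named after their values were seen. The result of 1 gene of the KLF2 target list is not reported here, and the list was counted without it.

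Control and OGP46 samples of the same number deviated in common over 6477 genes of at least 5 FPKM (r = 0.53, 0.79 and 0.29 in NB4, 0.34, 0.33 and 0.60 in Kasumi-1), each above 0.1, so the numbers were taken to pair them. Same-numbered control samples of the 2 lines did not (r between -0.01 and 0.03). In NB4, control 1 with OGP46 3 (r = 0.22) and control 3 with OGP46 1 (0.13) also passed 0.1. The other differently numbered NB4 pairs were at -0.29 or below, and those of Kasumi-1 lay between -0.42 and 0.08. The study names no pairing, so calls with the block rest on this reading. Alternatives covered pseudocount, filter, scaling, trend, block, left-out samples and, for NB4, subtraction of Kasumi-1 signal. This signal was at most 0.895% of the Kasumi-1 control level, by the median ratio of RUNX1T1, POU4F1 and TRH. Promoter windows came from RefSeq GRCh38.p14. The MEF2 motif was widened from a single form to the full consensus after the KLF2 sequence had been seen.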

Additional observations from a re-analysis of the deposited data

Results flagged for a closer look

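The change of KLF2 with OGP46 was larger in NB4 than in Kasumi-1 by 0.99 on the log2 scale, and that of KLF6 by 0.73, differences that passed in the interaction of cell line and treatment with the replicate block (limma adjusted p = 0.0415 and 0.0219). Without the block neither passed. The KLF2 difference rested on the pseudocount, since the NB4 controls were so low. In mean FPKM, KLF2 went from 0.137 to 0.832 in NB4 and from 0.693 to 1.49 in Kasumi-1. With the block and median centring, KLF6 passed and KLF2 did not (limma adjusted p = 0.0438 and 0.0752). No group had enough samples for a test of single outlying samples.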

How the results depend on the processing

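Of the 2 members called in NB4, 1 was called with no filter on low values, with a minimum mean of 1 FPKM (KLF2 was then not tested) and with no mean-variance trend. TPM scaling, median centring and quantile normalization called 0. Leaving out each sample in turn gave 0 to 2. With the block and median centring the number was 2. In Kasumi-1, where 0 were called, the replicate block gave 1, also with median centring, and leaving out samples gave 0 to 0. In the interaction, 0 became 2 with the replicate block and 1 with median centring added; left-out samples gave 0 to 0. Without median centring, pairing changed the call of KLF7 in NB4, KLF2 in Kasumi-1, and KLF2 and KLF6 in the interaction, and no other. With median centring, KLF2 and KLF6 in NB4 were called only with the block. Between control groups the 9 calls became 9 to 10 when samples were left out.

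Signs turned only for small changes. KLF16 in NB4 was -0.049 with median centring, also with the block, and -0.019 with quantile normalization. KLF3 in Kasumi-1 was -0.017 under those same 3 settings. KLF11 in Kasumi-1 was 0.012 with TPM scaling and ran from -0.093 to 0.13 over left-out samples, as KLF16 there did from -0.069 to 0.037. KLF1 ran from -0.33 to 0.27 in NB4 and from -0.42 to 0.19 in the interaction. In settings chosen after seeing the data, the mean of both KLF2 changes was 0.62 with a pseudocount of 1 and 1.79 with 0.01. KLF2 between control groups was -0.57 with a pseudocount of 1, under the minimum change. The causes were not tested. Depth is unknown, so the precision of low genes such as KLF2 and KLF1 rests on 3 samples a group.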
